A study of Mus musculus with 3 samples.

Results

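The genes for the proteins of the cytosolic ribosome were described in 3 libraries of activated mouse T cells. Members were the protein-coding rows with the symbol Rpsa, Rplp0, Rplp1 or Rplp2, or with Rpl or Rps followed by a number and at most 1 letter, which left out the Rps6k kinases and names with a hyphen. This gave 78 of the 17796 rows, 31 for the small and 47 for the large ribosomal subunit. All 78 had a mean of at least 1 CPM (reads per gene scaled to 1000000 in each library), the minimum used throughout.

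The young library came from C57BL/6 mice aged 2 months, labelled vehicle. The aged vehicle library and the aged fumarate library came from C57BL/6 mice for which an age of 24 months is stated, given vehicle or 10 mg/kg fumarate 3 times a week over 2 months. All 3 used T cells from spleen, kept for 3 days with plate-bound antibodies to CD3 (2 ug/ml) and CD28 (5 ug/ml) and with interleukin 2 (100 IU/ml), and polyadenylated RNA was sequenced. How many mice stand behind a library is not stated, and with 1 library per group there is no replicate error, no test and no p-value for any difference below.

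The cytosolic ribosome joins a small subunit, which reads the mRNA, to a large subunit, which forms the peptide bond, and most of its proteins are present in 1 copy per particle. Their mRNAs begin with a 5' terminal oligopyrimidine tract (TOP), a C followed by a run of C and T, through which the kinase complex mTORC1 and the RNA-binding protein LARP1 control their translation. Resting T cells hold few ribosomes, and activation through the T cell receptor makes them build many more before they divide. Mammalian genomes also carry many processed pseudogenes of these genes, copies made from the mRNA that can be nearly identical to it.

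The tract is the sequence feature by which these mRNAs are known, so pyrimidine runs near the RefSeq gene start are shown for 9 members (build GRCm38.p6, which has mm10 coordinates). They were not shown to be the first bases of the mRNA. Relative to the annotated start, the run began at −12 for Rpl7a and Rps27l and at 14 for Rpl11. That of Rps27l, with 9 bases, ended before the annotated start. Each 30-base stretch is written 5' to 3' on the strand of the gene, and capitals mark the C and the pyrimidines that follow it.
Rpl7a (chr2:26910789-26910818, plus strand): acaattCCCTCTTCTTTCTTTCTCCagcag
Rpl15 (chr14:18270967-18270996, minus strand): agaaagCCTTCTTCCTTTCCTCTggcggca
Rpl35 (chr2:39005115-39005144, minus strand): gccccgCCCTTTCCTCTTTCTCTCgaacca
Rpl11 (chr4:136053356-136053385, minus strand): ggaagtCTCCCTCTCTCTTCCTgttctcca
Rpl13a (chr7:45128720-45128749, minus strand): acaagaCCTCCTCCTTTCCCaggcggctgc
Rps10 (chr17:27635224-27635253, minus strand): cgcacgCCCCTTCCTTTCCagcctccgcct
Rps6 (chr4:86857345-86857374, minus strand): gtcgggCCTCTTTTTCgtgacgcctcccag
Rps27 (chr3:90213627-90213656, minus strand): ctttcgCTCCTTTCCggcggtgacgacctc
Rps27l (chr9:66946068-66946097, plus strand): tctccaCTCCTCCCCgccgcctctatcccg
Promoter windows of 300 bases were matched by symbol for 58 of the 78 members. A C followed by at least 7 pyrimidines, searched on the strand of the gene from 20 bases before to 30 bases after the start, was found for 32 of 58 members (55.2%), against 17.0% of the 27025 genes with a window and 340 of 1697 other protein-coding genes with a mean of at least 100 CPM. The letters CCGGAAG, on either strand of the 300 bases, were found for 25 members (43.1%), against 9.93% and 22.0% in the same sets. The letters GCCATNTT, on either strand, were found for 11 members (19.0%), against 6.96% and 12.8%. A gene counted as a match where any of its annotated starts matched, and the searches describe letters in these windows only.

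Depth was estimated from the steps between low values, in units of 1000000 reads, at 41.0 for young, 17.3 for aged vehicle and 13.9 for aged fumarate. Of 14 T cell markers 12 were lower in aged vehicle than in young, by a median of −0.38 (log2 ratio of CPM + 1). Of the 13750 genes with a mean of at least 1 CPM, 46.2% were lower. In aged fumarate 11 of the 14 markers were higher than in aged vehicle (median 0.21), against 6296 of the 13750 genes. None of the 14 markers was at 0. They summed to 3602 CPM in young, 2842 in aged vehicle and 3289.7 in aged fumarate. Markers of other cells also differed between the libraries, without 1 common pattern: the 12 platelet and erythroid markers summed to 13.9, 1352 and 176 CPM, with Car1 at 0 in the young library, and 9 listed markers of basophils and mast cells (of 10) to 5.42, 453 and 81.7 CPM. The 8 listed macrophage and monocyte markers (of 10) summed to 91.1, 75.9 and 58.5 CPM, most of it from Ctss at 88.1, 50.5 and 53.3 CPM. The other 7 of that list were higher in aged vehicle than in young, among them Lyz2 at 0.0488, 9.38 and 0.722 CPM. Past 1.5-fold higher were 4 of the 5 with a mean of at least 1 CPM (median 2.15), against 16.5% of the 13750 genes. The 8 B cell markers summed to 6.47, 17.4 and 18.6 CPM. Of the macrophage and B cell lists Fcgr1 was at 0 in the young and Adgre1 in the aged fumarate library. Csf1r, at 3.74 CPM in aged vehicle, was far below 1 read in the young and the aged fumarate library.

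Ribosomal protein mRNA took a smaller share of both aged libraries than of the young one. The 78 members summed to 4.801% of all CPM in the young library, with an exact (Clopper-Pearson) 95% interval of 4.795% to 4.808% that covers counting error only. The sum was 3.743% (3.734% to 3.752%) in aged vehicle and 3.863% (3.853% to 3.873%) in aged fumarate. Both subunits took part, the small one with 2.108%, 1.627% and 1.685% and the large one with 2.693%, 2.116% and 2.178%. In bulk RNA, fewer cells of a type and less RNA per cell cannot be told apart. The 10 members with the most CPM held 46.7%, 45.5% and 46.8% of the sum, a range of little more than 1 percentage point.

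The comparison of aged vehicle with young asks how activated T cells differ with age. Of 78 members 73 were lower in aged vehicle, against 46.2% of all 13750 genes with a mean of at least 1 CPM and 54.6% of the 2365 genes with a mean of at least 100 CPM. The members' median log2 ratio was −0.33, and the medians of these gene sets were 0.03 and −0.04. That direction depends on the scale: with the libraries scaled to the T cell markers, 20 of 78 members were lower and their median was 0.05. The median of all genes moved to 0.39 and that of genes with at least 100 CPM to 0.34. On that scale 14.4% of the genes with at least 100 CPM were lower. The members' median lay below that of all genes. Scaling could not change this order, because it applies 1 factor to every gene. The part of the T cell markers and of the other cells' markers in this result was not tested.

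The members moved as a narrow block. By their own rows on the deposited scale, only Rpl17 was past 1.5-fold lower and no member was past 1.5-fold higher, against 6.73% and 16.5% of all genes and 5.16% and 8.12% of those with at least 100 CPM. With copies added, or relative to the T cell markers, no member was past 1.5-fold lower, and on the latter scale 1, Rps27l, was past it higher. The SD of the log2 ratio over members was 0.16, against 0.66 over the genes with at least 100 CPM. The first and the third quartile of the members' ratios were −0.38 and −0.26. By counting error alone, the 95% interval lay below 0 for 68 members, above 0 for 2 and held 0 for 8. The same was not counted over all genes, so these numbers have no background beside them. These intervals belong to the ratio of CPM without the added 1.

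**Figure D1:**
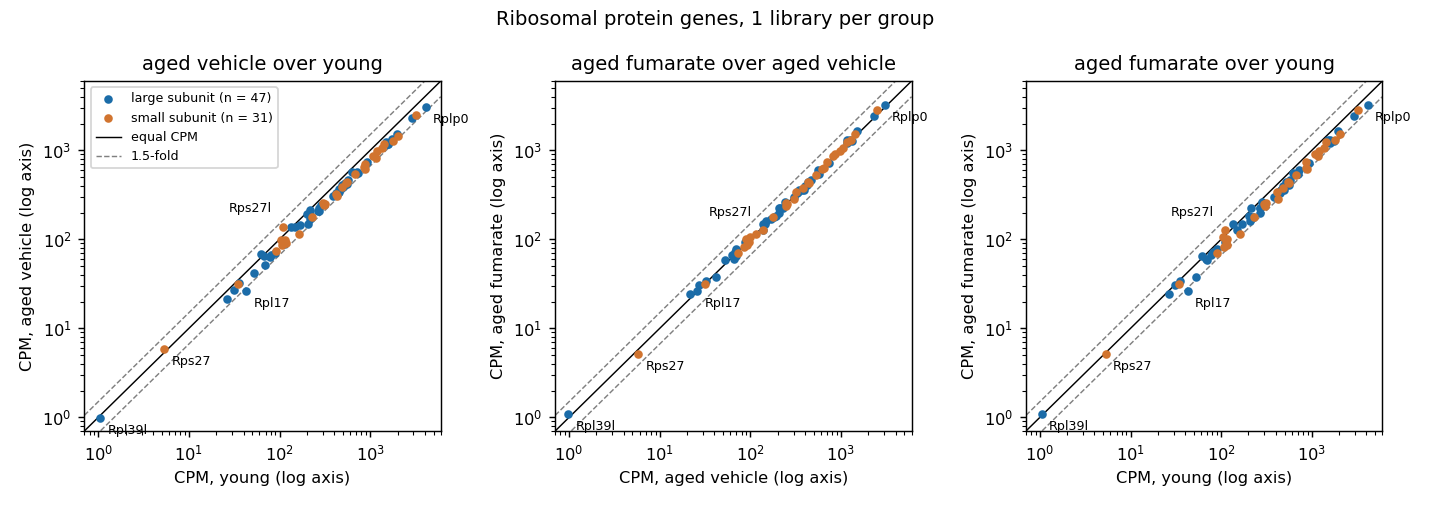
CPM of each of the 78 members in pairs of libraries on log axes, blue for the large and orange for the small subunit, with lines of equal CPM and of 1.5-fold. On the deposited scale 73 of 78 points lie under the line of equal CPM in the first panel (20 of 78 when scaled to the T cell markers), and in the middle panel the points lie on both sides of it.

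**Figure D2:**
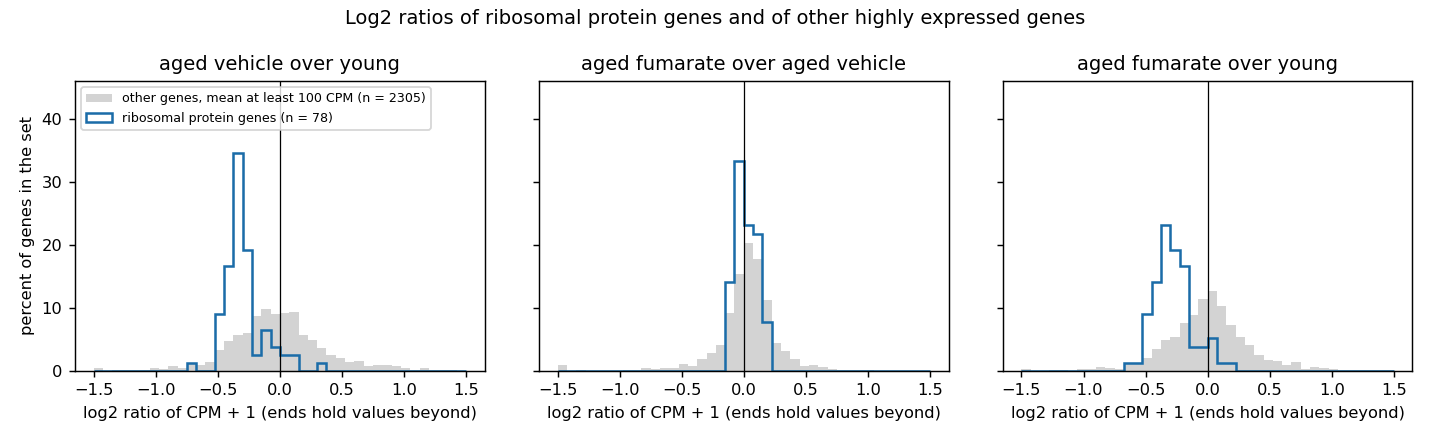
Log2 ratio of CPM + 1, as percent of the genes in each set, for the 78 members (blue line) and for 2305 other genes with a mean of at least 100 CPM (grey). On the deposited scale the members' medians are −0.33, 0.02 and −0.29 in the 3 panels; scaled to the T cell markers they are 0.05, −0.19 and −0.13, and the grey set shifts by the same amount.

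In the small subunit all 14 members of the head were lower in aged vehicle than in young (median −0.34), against 5 of 14 relative to the T cell markers. Of all genes 46.2% were lower, and of those with at least 100 CPM 54.6%. Relative to the T cell markers 14.4% of the genes with at least 100 CPM were lower. Rps3, at the mRNA entry channel, was at 1785 CPM in young, 1279 in aged vehicle and 1293 in aged fumarate. Rps15 was at 1169, 825 and 872 CPM and Rps20 at 426, 304 and 285 CPM, so both aged libraries were low for these 3 genes. The smallest difference in the head was that of Rps12, at 104, 98.3 and 105 CPM. Of the body and platform 15 of 16 members were lower (median −0.33), all but Rps27, against 3 of 16 relative to the T cell markers. Rpsa, also known as the laminin receptor, had 2027, 1436 and 1526 CPM (−0.50, interval −0.52 to −0.48). Rps14, a platform protein, was at 881, 621 and 619 CPM, and Rps23, at the decoding center, at 163, 114 and 114 CPM. Rps6, the target of the S6 kinases, was at 227, 179 and 177 CPM, and Rps2 at 3229, 2521 and 2855 CPM. Rps4x was at 1350.4, 1061 and 1060.4 CPM. Rps27a, counted with the head and made as a fusion with ubiquitin, was at 108, 85.3 and 81.3 CPM.

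Several members are mutated in Diamond-Blackfan anemia, an inherited failure of red cell production, among them Rpl5 and Rpl11, whose values follow. Rps19, the most often mutated of them, was at 486, 384 and 373 CPM (−0.34). Rps26 was at 869, 708 and 743 CPM (−0.29) and Rps24 at 1086, 865 and 901 CPM (−0.33). Rps7 and Rps10 had log2 ratios of −0.30 and −0.37, and Rpl35a of the large subunit one of −0.36. None of these was past 1.5-fold in aged vehicle over young on the deposited scale, against 6.73% of all genes lower and 16.5% higher. The members named above are not all those linked to that disease: by their own rows Rps28 was at −0.21, Rps29 at −0.23 and Rps27 at 0.11. All these ratios are on the deposited scale, and their direction can turn relative to the T cell markers.

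Beside the counts in the large subunit, 46.2% of all genes were lower and 54.6% of those with at least 100 CPM. Relative to the T cell markers 14.4% of the latter were lower. The 3 genes of the stalk, which recruits elongation factors, were all lower in aged vehicle than in young, against 2 of 3 relative to the T cell markers. Rplp0, its base, was the member with the most CPM, at 4117 in young, 3056 in aged vehicle and 3234 in aged fumarate (−0.43, interval −0.44 to −0.42). Rplp1 was at 1566, 1164 and 1304 CPM (−0.43) and Rplp2 at 424, 336 and 341 CPM (−0.34). The pair that joins the 5S RNA and can bind MDM2, the regulator of p53, was also lower, against 0 of 2 relative to the T cell markers: Rpl5 was at 77.6, 62.9 and 66.3 CPM (−0.30) and Rpl11 at 90.02, 69.7 and 77.1 CPM (−0.36). With near-identical copies added, the ratios of Rpl5 and Rpl11 were −0.56 and −0.51. Around the peptidyl transferase center 2 of 3 members were lower, against 0 of 3 relative to the T cell markers. There Rpl8 was at 1963, 1513 and 1640.2 CPM and Rpl3 at 726, 559.6 and 603 CPM, whereas Rpl10, which is added last to the subunit, was at 62.1, 68.7 and 64.5 CPM (0.14, interval 0.05 to 0.25), a direction that turned to −0.21 with its near-identical copies added.

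All 9 members that line or surround the exit tunnel were lower in aged vehicle than in young (median −0.32), against 4 of 9 relative to the T cell markers. Of the genes with at least 100 CPM 54.6% were lower, and 14.4% relative to the T cell markers. Rpl17 had the lowest ratio of the 78 members, with 42.7 CPM in young, 26.1 in aged vehicle and 26.5 in aged fumarate (−0.69, interval −0.86 to −0.56). Rpl4, which forms part of the tunnel wall, was at 2892, 2310 and 2403 CPM, and Rpl39 at 201, 192 and 181 CPM (−0.07). Rpl22, a protein that developing T cells need, was at 455, 342 and 358 CPM (−0.41). Elsewhere in the large subunit 27 of 29 members were lower (median −0.29), against 6 of 29 relative to the T cell markers. Rpl38 was at 52.5, 41.9 and 37.9 CPM, Rpl13a at 1750.2, 1326 and 1269.8 CPM, and Rpl41, the shortest ribosomal protein, at 1499.8, 1245 and 1315 CPM. The 2 that were not lower, Rpl10a and Rpl12, were at 214, 214 and 223 CPM and at 135, 139 and 149.9 CPM. Both were lower once near-identical copies were added (−0.54 and −0.49).

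**Figure D3:**
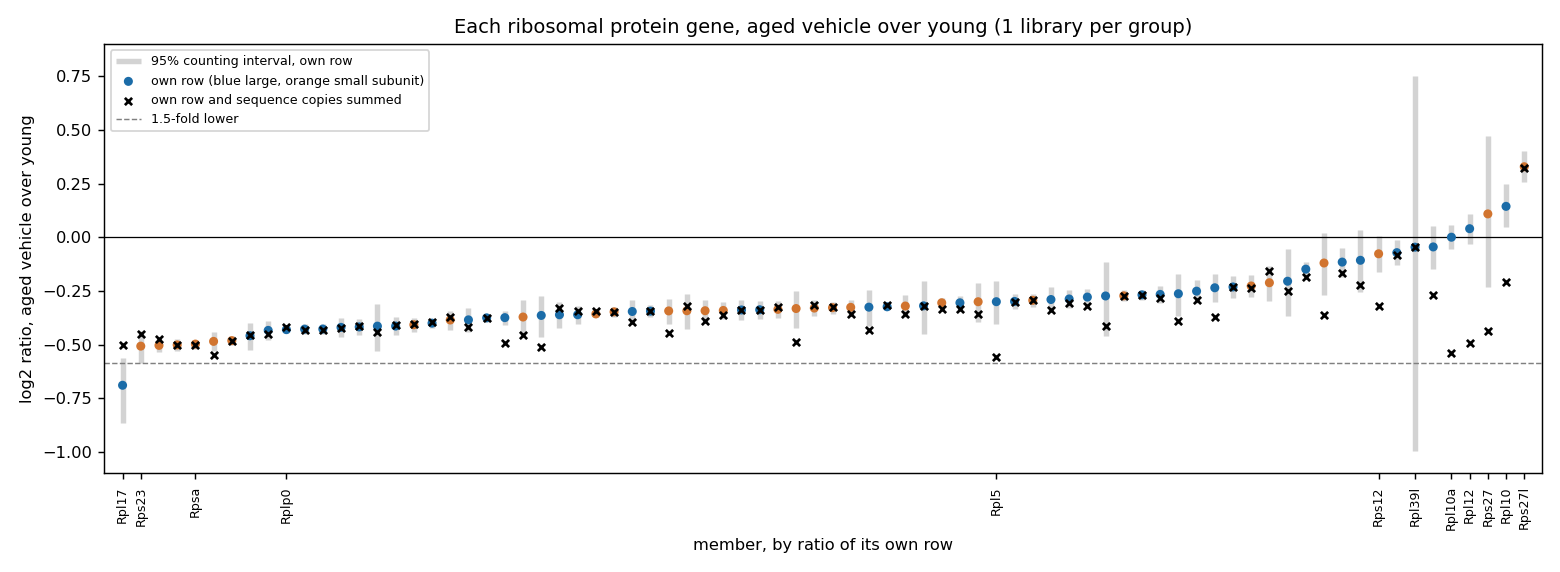
Log2 ratio of aged vehicle over young for each of the 78 members, ordered by the ratio of its own row (dots, CPM + 1; some are named), with grey 95% counting intervals of the plain CPM ratio and, as crosses, the ratio after all rows matched to it by sequence are added. On the deposited scale 73 dots and 77 crosses are below 0; the dots of Rpl10a, Rpl12, Rps27 and Rpl10 are above 0 and their crosses are below it, and Rps27l stays above 0 with both.

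Near-identical copies held much of the signal. Of 2651 rows annotated as pseudogenes or as retrogenes of ribosomal proteins, 579 matched the transcript of a member with at least 90% identity over at least 50% of the shorter sequence, and 75 of 78 members had such a copy. The copies summed to 5.178%, 3.916% and 4.028% of all CPM in young, aged vehicle and aged fumarate, so that 51.9%, 51.1% and 51.0% of the CPM of members and copies lay on copies. For 41 members the copies held over 50% in each of the 3 libraries. For Rpl5 the share on copies was 96.9%, 96.4% and 96.4%, and for Rpl17 it was 96.2%, 96.7% and 96.7%, while it was 0.8%, 0.9% and 0.8% for Rps3. How reads were divided between a gene and its copies is not given in the sources used here, so the level of a single member with copies is uncertain. The sum with its copies does not depend on how they were divided within the set.

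With the copies added, 77 of 78 members were lower in aged vehicle than in young on the deposited scale (median −0.36, SD 0.13), and none was past 1.5-fold in either direction. Rpl10a went from no difference to −0.54, with family sums of 1265, 871 and 913 CPM. Rpl12 went from 0.04 to −0.49 (2029, 1442 and 1493 CPM), and Rpl10 from 0.14 to −0.21 (1579.6, 1367 and 1418 CPM). Rpl17, the lowest by its own row, went from −0.69 to −0.50 (1119, 790.2 and 791 CPM), and Rpl5 became the lowest at −0.56 (2536, 1723 and 1818 CPM). Nearest to 0 or above it with copies added were Rpl39 at −0.08, Rpl39l at −0.05 and Rps27l at 0.32. On this measure the total was 9.979% of CPM in young, 7.658% in aged vehicle and 7.891% in aged fumarate.

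**Figure D4:**
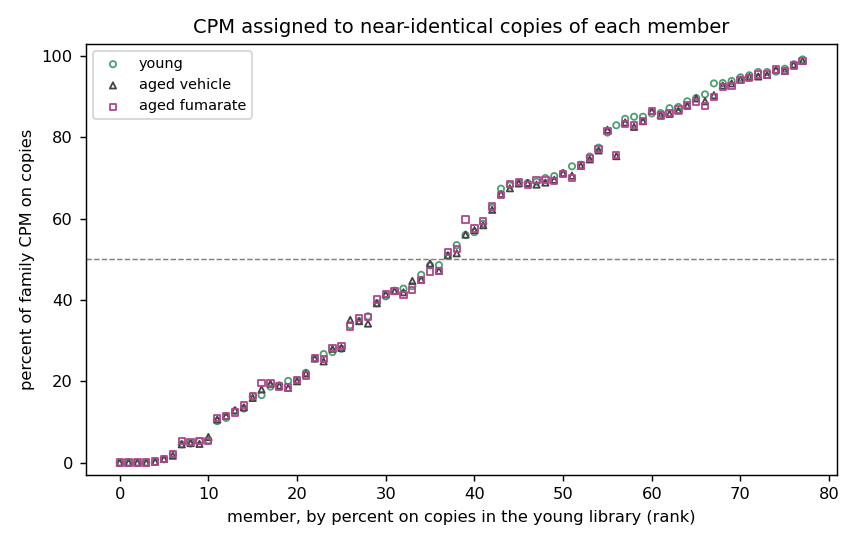
Percent of each member's CPM, own row and copies together, that lay on copies, with the 78 members ordered by the young library and 1 symbol per library. The share runs from 0% to 99.2% in the young library, and the 3 symbols of a member lie close together.

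Rps27 shows how far this can go. Coding sequences are printed in full because its retrocopy Rps27rt has the same coding bases, whereas its paralog Rps27l does not. The rest of the transcripts was not compared base by base. Sequences are those of GENCODE M21 transcripts (mm10), 252 bases without the stop codon, after the position of each gene; capitals mark bases that differ from Rps27.
Rps27 (chr3:90212522-90213651, minus strand): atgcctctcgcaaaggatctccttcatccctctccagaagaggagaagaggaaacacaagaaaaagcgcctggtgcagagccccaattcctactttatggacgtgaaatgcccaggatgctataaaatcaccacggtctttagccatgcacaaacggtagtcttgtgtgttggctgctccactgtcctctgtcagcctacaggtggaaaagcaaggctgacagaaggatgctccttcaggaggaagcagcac
Rps27rt (chr9:114982366-114982739, minus strand): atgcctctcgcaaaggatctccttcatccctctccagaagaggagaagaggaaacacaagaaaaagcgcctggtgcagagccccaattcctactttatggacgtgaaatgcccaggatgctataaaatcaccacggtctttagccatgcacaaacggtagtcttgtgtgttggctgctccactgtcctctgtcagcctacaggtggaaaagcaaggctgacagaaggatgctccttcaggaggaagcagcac
Rps27l (chr9:66946086-66949516, plus strand): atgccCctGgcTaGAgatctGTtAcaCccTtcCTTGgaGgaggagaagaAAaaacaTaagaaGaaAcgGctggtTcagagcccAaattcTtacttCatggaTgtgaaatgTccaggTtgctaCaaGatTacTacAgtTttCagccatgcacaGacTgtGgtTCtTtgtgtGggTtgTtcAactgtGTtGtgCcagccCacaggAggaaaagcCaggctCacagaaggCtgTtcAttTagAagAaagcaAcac
The coding bases of Rps27rt and Rps27 did not differ at any position, whereas Rps27l differed at 60 bases (76.2% identity). Rps27 itself was at 5.32 CPM in young, 5.82 in aged vehicle and 5.20 in aged fumarate, and Rps27rt at 636, 468 and 452 CPM. Summed with its copies, Rps27 reached 642, 474 and 457.6 CPM, which gives −0.44 for aged vehicle over young. The row of Rps27 alone, with a ratio of 0.11 (interval −0.23 to 0.47), left 99.2%, 98.8% and 98.9% of that sum on copies.

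Rps27l, a paralog of Rps27 that is a known target of p53, went the other way. It had 109.7 CPM in young, 138 in aged vehicle and 127 in aged fumarate, which gives 0.33 for aged vehicle over young (interval 0.26 to 0.40), the highest of the 78 members. Its copies held 2.1%, 1.7% and 2.1% of its CPM. The ratio was 0.27 with TMM scaling and 0.71 relative to the T cell markers, so its direction did not turn with the scale. Of 10 genes listed for p53 and its targets all were higher in aged vehicle than in young (median 0.52), against 7391 of all 13750 genes. Of the 10, 5 were past 1.5-fold higher, against 16.5% of all genes. Whether the ratio of Rps27l is linked to p53 here was not tested. Cdkn1a, the cell cycle inhibitor p21, was at 344, 710.2 and 644 CPM, Phlda3 at 33.9, 68.3 and 57.4 CPM, and Zmat3 at 68.3, 122 and 112 CPM. Rpl39l, the paralog of Rpl39, was at 1.05, 0.985 and 1.08 CPM, which is near the lowest level kept. Rpl3l, Rpl10l and Rps4l have no row in the table and were not analysed here.

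Ribosomal proteins whose symbols the rule leaves out were lower in aged vehicle than in young in 7 of 8 cases (median −0.34). Of all genes 46.2% were lower. Relative to the T cell markers 2 of the 8 were lower, against 14.4% of the genes with at least 100 CPM. Rack1, on the head of the small subunit, was at 1892, 1504 and 1508 CPM, Rps3a1 at 1135, 887 and 874 CPM, and Fau, which encodes a ribosomal protein fused to a ubiquitin-like protein, at 129, 101 and 107 CPM. The paralogs Rpl22l1 and Rpl36al were at 87.9, 64.5 and 57.0 CPM and at 240.02, 192 and 179 CPM, and the retrogene Rps27rt is given above. The exception was Rpl7l1, a relative of Rpl7 that takes part in making the large subunit, at 158, 215 and 207 CPM (0.44), while Rpl7 was at 1577, 1172 and 1211 CPM. On the deposited scale none of the 8 was past 1.5-fold in aged vehicle over young, against 6.73% of all genes lower and 16.5% higher. Rpl22l1 was past it lower in aged fumarate over young (−0.62), against 6.79% of all genes. For this list such calls were not counted relative to the T cell markers, where they can differ.

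**Figure D5:**
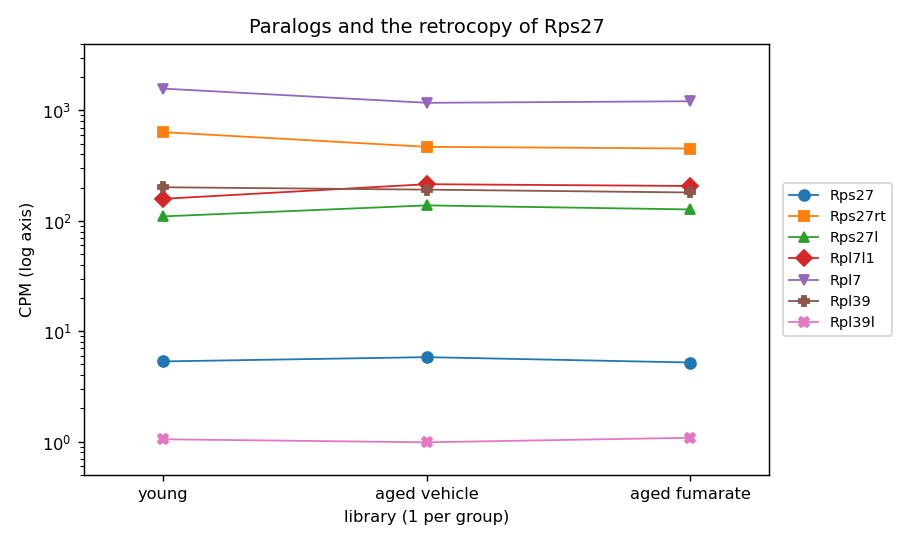
CPM on a log axis of Rps27, its retrocopy Rps27rt and 3 pairs of relatives in the 3 libraries, 1 library per group, with lines that join the values of a gene. Rps27l and Rpl7l1 are higher in both aged libraries than in the young one, and Rps27rt and Rpl7 are lower there; relative to the T cell markers the differences of Rpl39 and other members can turn.

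A list of 16 other mRNAs known as TOP mRNAs was also followed; the tract search found a match for 3 of the 10 with a promoter window. All 16 were lower in aged vehicle than in young (median −0.23), against 46.2% of all genes, and 3 of 16 were lower relative to the T cell markers (median 0.15). On the deposited scale 1 of 16, against 6.73% of all genes, was past 1.5-fold lower, Eef1a1, the elongation factor that carries tRNA to the ribosome, at 9655 CPM in young, 6381 in aged vehicle and 6230 in aged fumarate. Npm1, a nucleolar chaperone, was at 1607, 1254 and 1452 CPM and Eef2, the translocation factor, at 5981, 5169 and 5373 CPM. Genes that control these mRNAs had no common direction, with 6 of 15 lower, against the same 46.2% of all genes, and a median of 0.01. Eif4ebp1, a translational repressor held in check by mTORC1, was the 1 past 1.5-fold lower, at 121, 56.1 and 56.4 CPM. Deptor, an mTOR inhibitor, was the 1 past it higher, against 16.5% of all genes, at 0.558, 1.97 and 0.505 CPM. Mtor was at 71.8, 72.2 and 75.6 CPM and Larp1 at 724, 663 and 694 CPM. Of 8 chaperones of ribosomal proteins none was past 1.5-fold (median 0.02), with Grwd1, the chaperone of Rpl3, at 59.9, 69.4 and 74.1 CPM. Relative to the T cell markers 14 of the 15 control genes and 8 of the 8 chaperones were higher, with all genes at a median of 0.39.

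Aged fumarate over aged vehicle asks what went with treatment of the aged mice. No member was past 1.5-fold in either direction, against 2.15% of all genes higher and 11.2% lower (1.35% and 2.58% of those with at least 100 CPM). Of 78 members 37 were lower, against 54.2% of all genes and 38.6% of those with at least 100 CPM, and the median was 0.02 with an SD of 0.08. With TMM scaling 18 members were lower (median 0.06). Relative to the T cell markers, which were higher in aged fumarate, all 78 were lower (median −0.19, against −0.22 for all genes). The large subunit's median was 0.05 and that of the small subunit −0.0037.

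Small differences of either sign remained. Rps2, at 2521 CPM in aged vehicle and 2855 in aged fumarate, had a ratio of 0.18 (interval 0.16 to 0.20), and Rplp1 one of 0.16 (0.14 to 0.19). The highest was Rpl36a, at 21.5 and 24.6 CPM (0.18), with an interval of −0.02 to 0.41. Rps10 was at 90.3 and 101 CPM (0.16) and Rpl23a at 27.0 and 30.6 CPM (0.17, interval −0.01 to 0.37). With copies added the ratios of Rpl36a and Rpl23a were 0.05 and 0.01, and those of Rps2, Rplp1 and Rps10 were 0.18, 0.15 and 0.14. Over all 78 members the median with copies was 0.02 (SD 0.063), with 48 above 0. By their own rows, 1453 of the 2365 genes with at least 100 CPM were above 0. The lowest were Rpl38 and Rps27 at −0.14, Rps27l at −0.12, Rpl37 at −0.12 and Rpl37a at −0.10. By counting error alone the interval lay above 0 for 22 members, below 0 for 7 and held 0 for 49, which was not counted over all genes. All 10 genes of the p53 list had ratios below 0 in this comparison (median −0.19; 9 of 10 with TMM scaling), against 54.2% of all genes. The 1 past 1.5-fold lower, against 11.2% of all genes, was Bbc3, a promoter of cell death, at 35.9 and 20.9 CPM.

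Between aged fumarate and young, 72 of 78 members were lower in the treated aged library, against 49.2% of all genes and 49.3% of those with at least 100 CPM. Their median was −0.29, and relative to the T cell markers 66 were lower with a median of −0.13, against 0.15 for all genes. Rpl17 was the 1 member past 1.5-fold lower (−0.67) and none was past it higher, against 6.79% and 10.5% of all genes and 3.55% and 6.3% of those with at least 100 CPM. Relative to the T cell markers 0 members were past it lower, and with TMM scaling 2 were. Next came Rps20 at −0.58, Rps23 and Rps14 at −0.51 and Rps3 at −0.47. At the other end were Rps27l at 0.21, Rpl12 at 0.15, Rpl10a at 0.06, Rpl10 at 0.05, and Rpl39l and Rps12 at 0.02. With copies added 76 of 78 were lower (median −0.35), and Rps20, with family sums of 915 CPM in young and 599 in aged fumarate (−0.61), was then the 1 past 1.5-fold. This comparison shares the young library with the first and the fumarate library with the second, so its values are no separate evidence.

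Levels differed far more between genes than between libraries. Per kilobase of principal transcript (GENCODE M21), the highest members by their own rows were Rps2 at 3236, 2526 and 2861 CPM per kb, Rplp1 at 3139, 2333 and 2614, Rplp0 at 3032, 2250 and 2382, Rpl41 at 2757, 2289 and 2418 and Rpl8 at 2306, 1778 and 1927. In both aged libraries Rpl41 stood before Rplp0, and Rps15, at 2337, 1650.5 and 1744 CPM per kb, stood before Rpl8 in the young library only. With no replicates it is not known which neighbours in this order differ beyond their spread. At the low end Rps27 was at 15.4, 16.9 and 15.1 and Rpl39l at 1.30, 1.22 and 1.35 CPM per kb. With copies added, Rps27 had a mean of 1521 CPM per kb over the 3 libraries, and the 78 members ran from 1.29 for Rpl39l to 4891 for Rps2. Rps15a and Rps20 have principal transcripts of 5130 and 3706 bases in this annotation, so their values per length depend on which form is taken.

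The members lie on 19 chromosomes, with 14 on chromosome 7. Genes for snoRNAs, small RNAs that guide rRNA modification and are cut from introns, lie inside 29 of the 78 members. For aged vehicle over young the median of these hosts was −0.32 with 27 of 29 lower, and that of the other 49 members was −0.33 with 46 lower. Among the 58 members with a promoter window, those with the pyrimidine tract had a median of −0.33 and those without it −0.30. Members with and without CCGGAAG had medians of −0.33 and −0.32, and those with and without GCCATNTT both −0.32.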

How the data were processed

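Polyadenylated RNA of 3 libraries was sequenced, 1 per group. Per the labels' protocols, 500 ng of total RNA entered a SMARTER mRNA kit. STAR, Partek and mm10 are named, per the submitters' processing notes; for the annotation release, strand and treatment of reads with several matches nothing is stated in the labels or headers. The deposited values are CPM, since each column summed to 1000000, although the table is called raw counts, so no count model was run. The lowest steps between values gave the estimated depth, with 57.9% to 67.6% of values above 0 at whole reads (tolerance 0.02 reads). A count of 0 allows up to 0.0732, 0.174 and 0.217 CPM in young, aged vehicle and aged fumarate (3 reads).

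Differences are log2 ratios of CPM + 1 over genes with a mean of at least 1 CPM. Clopper-Pearson 95% intervals on estimated reads cover counting error only, as reads carry no molecular identifiers. Copies were found with blastn 2.17.0 against GENCODE M21, where 17191 of 17355 symbols had the table's position. Versions were scipy 1.17.1, numpy 2.4.6, matplotlib 3.10.9 and pandas 2.3.3 under Python 3.11.15. The fold limit was also run on simulated reads with known changes. Those reads carried counting error only, so they cannot show how far the calls hold between mice. Named genes were members past 1.5-fold, the 5 highest and 5 lowest members per comparison with a mean of at least 10 CPM, the 5 highest per kilobase, members under 10 CPM, those of listed roles, ribosomal proteins outside the name rule and up to 3 genes per other list; Rpl4, Rpl7, Rpl13a, Rps15a, Rps28, Rps29, Ctss, Lyz2, Eef2, Mtor and Larp1 were added after their values were seen. The members and lists were chosen with earlier results of these data known. Alternatives were other scalings, added constants, minimums and member lists. Values of some single genes are not reported here, and they stay in the counts and medians.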

Additional observations from a re-analysis of the deposited data

How the results depend on the processing

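No paired analysis was possible because each group had 1 library, and no library could be left out. Scaling to the T cell markers, sequence copies and leaving out the paralogs were chosen after seeing the data. The median of aged vehicle over young, −0.33 as deposited, was −0.38 with TMM and with median-of-ratios scaling, −0.34 with named pseudogenes added, −0.36 with sequence copies added, and turned to 0.052 relative to the T cell markers. That of aged fumarate over aged vehicle, 0.02 as deposited, was 0.056 with TMM and 0.057 with median of ratios, 0.0023 with the wider list, and turned to −0.19 relative to the T cell markers. That of aged fumarate over young, −0.29 as deposited, was −0.30 with TMM, −0.29 with median of ratios, −0.30 with the wider list, with a minimum of 10 CPM and without the paralogs, −0.33 with named pseudogenes, −0.35 with sequence copies and −0.13 relative to the T cell markers. In aged vehicle over young the members past 1.5-fold lower went from 1 to 0 with named pseudogenes, with sequence copies and relative to the T cell markers, and those higher from 0 to 1 relative to the T cell markers. In aged fumarate over young the 1 lower became 2 with TMM and 0 with named pseudogenes or relative to the T cell markers. The summed share was 5.418%, 4.132% and 4.287% of protein-coding CPM, 7.46%, 5.739% and 5.92% of all CPM with named pseudogenes and 9.979%, 7.658% and 7.891% with sequence copies. The cause of these changes was not tested, apart from the genes each alternative adds or removes. Members at low CPM, such as Rpl39l and Rps27, had counting intervals too wide to show differences of the size seen in the others.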
